A study of Homo sapiens with 59 samples.

Results

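The data described here are the H2AK119ub domain lists of shDPPA2, a doxycycline-inducible knockdown line made from NCI-H661 cells, an established line from a large cell carcinoma of the lung. They were chosen by line and antibody alone, which gave 4 of the 59 samples of the series. The shRNA against DPPA2 sat in a miR30 backbone in a PiggyBac vector, and the line was kept as a stable, sorted bulk population rather than as a single clone. Cells were given doxycycline at 2 µg/ml (DOX) or water (H2O) for 7 days, and each treatment holds replicates 1 and 3, so the libraries form pair 1 and pair 3. All 4 libraries came from the same vector-carrying line, so the shRNA and doxycycline itself cannot be told apart within them, and DPPA2 protein or RNA was not measured in these lists. A line with a control shRNA was not analysed here.

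H2AK119ub is a single ubiquitin on a lysine near the end of histone H2A, placed by RING1 and RNF2, the catalytic subunits of Polycomb repressive complex 1 (PRC1). It is best known from silenced developmental genes, where it lies together with H3K27me3, the mark of Polycomb repressive complex 2 (PRC2), but variant forms of PRC1 also place it at CpG-rich promoters of active genes. DPPA2 and its partner DPPA4 are small SAP-domain proteins of early embryos and embryonic stem cells that bind CpG-rich promoters. At promoters that carry both H3K4me3, a mark of gene starts, and H3K27me3, the state is called bivalent.

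The libraries were compared as lists of enriched domains. A domain counted when its enrichment over genomic input was above 1 on the log2 scale with an FDR under 0.05, and ChIPCount is the number of ChIP reads that the caller found inside it. A promoter is the window of 1500 bp to each side of the start of a protein-coding gene in GENCODE 44 (20007 genes), and it was called marked when domains covered at least 300 bp of the window. The start is the outermost end of the gene record, so it may not be the start site in use. Lost promoters were marked in H2O 1 and H2O 3 and in no DOX library, and gained promoters in DOX 1 and DOX 3 and in no H2O library.

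By this rule 519 promoters (2.59% of 20007) were lost in both pairs and 268 (1.34%) were gained in both pairs. The sequences shown next are the 250 bases upstream of the start of the 3 lost and 2 gained promoters that ranked first by the smaller of their changes in covered length, leaving out windows that touch an annotated exon, and NKX6-3 for its chromosome. They show the contrast in CpG content that the groups of promoters carry. CpG dinucleotides are in capitals, each sequence runs 5′ to 3′ on the strand of its gene, and the build is hg38. BMAL2, a circadian transcription factor, lies on the plus strand and its window is chr12:27332586-27332835. The window of NIBAN1, a stress-induced regulator of translation, is chr1:184974509-184974758 on the minus strand. SIPA1L3, a Rap GTPase-activating protein, has its window at chr19:37906958-37907207 on the plus strand. FOXA2, a pioneer transcription factor of endoderm and lung, lies on the minus strand with the window chr20:22585456-22585705. NLRP3, the sensor of an inflammasome, has the window chr1:247415906-247416155 on the plus strand.
BMAL2: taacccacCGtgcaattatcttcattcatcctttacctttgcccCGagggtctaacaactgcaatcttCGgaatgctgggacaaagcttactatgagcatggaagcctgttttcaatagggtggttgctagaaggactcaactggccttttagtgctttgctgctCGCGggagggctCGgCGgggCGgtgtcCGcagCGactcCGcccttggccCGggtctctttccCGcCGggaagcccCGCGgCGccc
NIBAN1: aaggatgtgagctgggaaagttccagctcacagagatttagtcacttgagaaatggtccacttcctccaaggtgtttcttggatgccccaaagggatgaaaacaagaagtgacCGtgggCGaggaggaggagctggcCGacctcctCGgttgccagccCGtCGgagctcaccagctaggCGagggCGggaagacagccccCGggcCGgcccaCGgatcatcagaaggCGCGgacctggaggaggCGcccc
SIPA1L3: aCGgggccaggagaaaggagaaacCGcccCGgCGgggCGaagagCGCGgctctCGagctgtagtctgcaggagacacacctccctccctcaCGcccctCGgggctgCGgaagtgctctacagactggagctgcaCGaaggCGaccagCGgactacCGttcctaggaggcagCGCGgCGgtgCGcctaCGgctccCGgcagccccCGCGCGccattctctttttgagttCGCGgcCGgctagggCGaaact
FOXA2: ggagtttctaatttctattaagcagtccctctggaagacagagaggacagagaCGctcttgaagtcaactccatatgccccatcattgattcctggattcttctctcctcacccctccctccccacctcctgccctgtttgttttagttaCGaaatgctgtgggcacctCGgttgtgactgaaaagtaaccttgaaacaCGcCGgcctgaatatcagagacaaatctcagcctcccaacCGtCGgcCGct
NLRP3: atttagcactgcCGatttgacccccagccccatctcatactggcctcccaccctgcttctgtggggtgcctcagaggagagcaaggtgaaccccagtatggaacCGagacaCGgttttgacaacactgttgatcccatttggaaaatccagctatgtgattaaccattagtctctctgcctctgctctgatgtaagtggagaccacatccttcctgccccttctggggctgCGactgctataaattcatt

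The lost promoters BMAL2, NIBAN1 and SIPA1L3 hold 17, 14 and 28 CpG dinucleotides in these 250 bases, against 8 for FOXA2 and 4 for NLRP3. Over all 519 lost promoters the median was 19 upstream CpG dinucleotides, over the 268 gained promoters it was 5, and over all 20007 promoters it was 14. In the window of 500 bp to each side of the start, the median ratio of observed to expected CpG was 0.79 for lost, 0.29 for gained and 0.69 for all promoters. A ratio of at least 0.6 was held by 83.6% of lost and 22.8% of gained promoters, with 60.04% of all promoters beside them. Promoters marked in all 4 libraries (4103) had a median ratio of 0.77 and those marked in none (7044) of 0.36.

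The libraries differed in depth in ways that move with the results. Filtered domains held 1807016 reads in H2O 1, 1606165 in H2O 3, 3405255 in DOX 1 and 4136521 in DOX 3. Relative library totals, recovered from the enrichment values and the counts of the shared input, were 0.586 for H2O 3, 0.918 for DOX 1 and 1.54 for DOX 3 with H2O 1 set to 1. Within pair 1 the DOX library was thus slightly smaller than its H2O partner (0.918 times), and within pair 3 it was 2.62 times as large. Each treatment also had a single input library, so the input and the treatment cannot be told apart, and the part of depth and input in the results was not tested. DOX 3 stood apart from the other libraries of this line: the shared bases divided by the bases covered in either list (the Jaccard index) were 0.125, 0.197 and 0.240 for its pairings with H2O 1, H2O 3 and DOX 1, whereas the other pairings lay between 0.271 and 0.330. With DOX replicate 3 of the sister lines shDPPA4 (DPPA4 knockdown) and shDPPA2+4 (double knockdown), however, its index was 0.306 and 0.306. Both of those libraries were also larger than the H2O 3 library of their own line. Values are therefore given for each pair apart, and those of pair 1 do not rest on DOX 3.

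Marks at the promoters of cell type markers were used to check the label. H3K4me3 was present in both H2O libraries at 5 of 5 epithelial markers, among them EPCAM and the keratins KRT8 and KRT18, at 4 of 4 mesenchymal markers including VIM, and at DPPA2 and DPPA4. Of the lung markers 2 of 5 carried it, NKX2-1 and SFTPC, and the surfactant gene SFTPB and the protease gene NAPSA were at 0 bp. KRT19, FN1, CDH2 and SFTPC were bivalent, with H3K27me3 in both H2O libraries as well. CDH1 carried H3K27me3 in H2O 1 alone and NKX2-1 in H2O 3 alone. These counts therefore do not show that every one of these markers is active. None of the 4 blood markers, among them PTPRC, CD3E and SPI1, carried H3K4me3 in both H2O libraries.

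The first question was whether the domains themselves differed with doxycycline. They were more numerous and wider in DOX in each pair. H2O 1 and DOX 1 held 43271 and 55076 domains, and H2O 3 and DOX 3 held 52207 and 70729. Median width went from 700 bp to 1300 bp in pair 1 and from 800 bp to 1100 bp in pair 3. The length covered was 42.0 Mb in H2O 1, 56.2 Mb in H2O 3, 99.4 Mb in DOX 1 and 98.2 Mb in DOX 3, so both DOX libraries lay above both H2O libraries. The mean difference was 49.7 ± 10.9 Mb (SD, n = 2 pairs) in covered length and 450 ± 212 bp (SD, n = 2 pairs) in median width. An exact two-sided sign-flip permutation test over 2 pairs cannot give a p below 0.5, and both differences reached that value.

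The difference in number was largest in the upper width classes. Domains of at least 5 kb numbered 409 in H2O 1, 619 in H2O 3, 2474 in DOX 1 and 1308 in DOX 3, which is 6.05 times as many in DOX in pair 1 and 2.11 times in pair 3. Those of at least 10 kb numbered 51, 64, 332 and 195 in the same order. At the other end, domains under 500 bp went from 9754 to 516 in pair 1 and from 6196 to 1582 in pair 3. The widest domain of H2O 1 (26200 bp) covered PAX9, a pharyngeal and tooth development factor, and that of H2O 3 (30500 bp) covered SFTA3 and NKX2-1, the latter the master regulator of lung epithelium. In DOX 1 the widest domain, at 52100 bp, again lay over SFTA3 and NKX2-1 and held 6144 reads. In DOX 3 it was 58300 bp wide over ZNF536, a neuronal zinc finger gene, with 4746 reads.

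**Figure D1:**
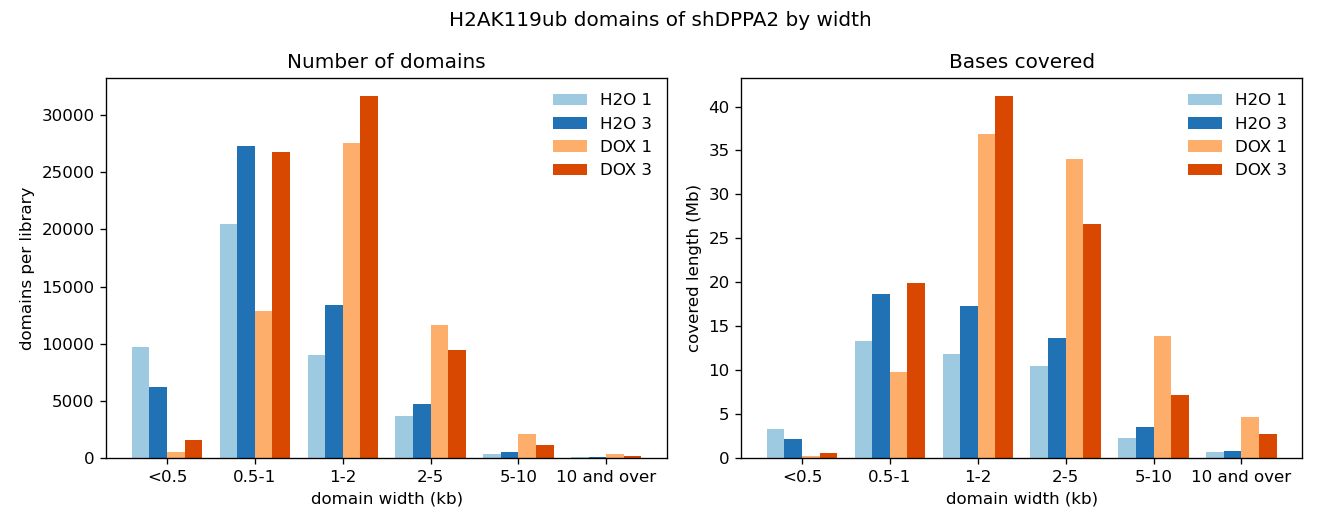
Number of H2AK119ub domains (left, y axis) and bases covered in Mb (right, y axis) by domain width in kb (x axis), with 1 bar for each shDPPA2 library. The DOX libraries hold fewer domains under 0.5 kb (516 and 1582, against 9754 and 6196) and more of at least 5 kb.

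Domains were also set against each other within a pair. Of the H2O domains, 63.7% overlapped a DOX domain in pair 1 and 47.8% in pair 3. Where a DOX domain held a single H2O domain, its median width was 1600 bp against 800 bp for its H2O partner in pair 1 (13933 matches, 80.1% wider in DOX) and 1300 bp against 1000 bp in pair 3 (17103 matches, 54.7% wider in DOX). The DOX domain joined at least 2 H2O domains in 30.2% of the overlapping cases of pair 1 and 21.0% of those of pair 3. Most DOX domains had no H2O partner: 35108 in pair 1, covering 44.4 Mb, and 49073 in pair 3, covering 54.5 Mb.

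The reads per domain were higher in DOX in both pairs, while the median enrichment was lower. Median ChIPCount went from 23 to 33 in pair 1 and from 17 to 38 in pair 3. Read density in domains went from 43.0 to 34.3 reads per kb in pair 1 and from 28.6 to 42.1 in pair 3, so its direction differed between the pairs. Divided by the relative library totals, the share of the library inside domains was 2.05 times as high in DOX as in H2O in pair 1 and 0.982 times in pair 3. Median enrichment over input was 3.97-fold and 4.78-fold in H2O 1 and H2O 3, and 3.52-fold and 3.55-fold in DOX 1 and DOX 3. The longer DOX lists thus held domains of lower median enrichment in both pairs.

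Merging the lists of the 4 libraries gave 111854 regions. A domain in every library was found in 8851 of them (7.91%), with a median width of 4500 bp, and 48.2% of these touched a promoter. Regions with a domain in DOX 3 alone were the most numerous class at 36714 (32.8%), with a median width of 1000 bp, and 1.92% of them touched a promoter. Regions in both DOX and no H2O library numbered 6557 and those in both H2O and no DOX library 2112. Of the latter 29.0% touched a promoter, and of the former 4.71%. The widest region with a domain in all 4 libraries was chr2:176076101-176139000, the HOXD cluster from EVX2 to HOXD3. Domains covered 54000, 53300, 59000 and 32000 bp of it in H2O 1, H2O 3, DOX 1 and DOX 3, with 2870, 1970, 3395 and 1738 reads. The next was chr19:30198701-30258900 at ZNF536, where domains covered 30200, 45500, 44500 and 60000 bp and held 1634, 1784, 2599 and 4873 reads. Another at chr19:29403201-29459300 holds no protein-coding gene, and the covered length went from 6100 to 30500 bp in pair 1 and from 24900 to 55900 bp in pair 3. DOX 3 was thus the lowest library at HOXD and the highest at both chromosome 19 regions.

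The next question was where in the genome the domains lay. Promoters took up a smaller share of the covered length in DOX, and gene bodies and the space outside genes a larger one. The promoter share was 32.1% in H2O 1, 24.9% in H2O 3, 19.4% in DOX 1 and 8.32% in DOX 3, whereas promoters make up 1.77% of the genome. In absolute length, promoter coverage went from 13.5 to 19.2 Mb in pair 1 and from 14 to 8.17 Mb in pair 3. Gene bodies away from promoters took 38.6% and 41.2% in H2O 1 and H2O 3 and 44.1% and 44.03% in DOX 1 and DOX 3, with 41.2% of the genome beside them. The mean difference in gene body share was 4.15 ± 1.89 percentage points (SD, n = 2 pairs; exact two-sided sign-flip permutation p = 0.5, the smallest possible). Outside genes the share was 29.2%, 33.9%, 36.5% and 47.7% in the same order. Domains that touched a promoter went from a median of 1000 to 1900 bp in pair 1 and from 1100 to 1400 bp in pair 3, so they too were wider in DOX, although their number went from 13278 to 12339 and from 12315 to 6976.

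Bases were then sorted by H3K4me3 and H3K27me3, each taken as present where both H2O lists of that mark in the same line agreed. H3K4me3 without H3K27me3 covered 40.0% of the bases of H2O 1, 27.1% of H2O 3, 20.9% of DOX 1 and 5.38% of DOX 3. In Mb this was 16.8, 15.2, 20.8 and 5.28, so the amount was higher in DOX in pair 1 and lower in pair 3. Bases with H3K27me3 alone were more in DOX in both pairs, from 4.44 to 12.97 Mb and from 9.19 to 18.2 Mb. Bases with neither mark went from 18.6 to 63.0 Mb in pair 1 and from 29.4 to 72.7 Mb in pair 3. The 12.1 Mb under domains in all 4 libraries were 34.3% H3K4me3 alone, 13.9% both marks and 15.4% H3K27me3 alone. Of the 54.3 Mb found in DOX 3 only, 0.101% carried H3K4me3 alone, whereas 12.1% did of the 37.7 Mb found in DOX 1 only. Set against the H3K27me3 library of the same treatment and number, the share of H2AK119ub bases that it covered was 24.5% for H2O 1, 23.4% for H2O 3, 30.2% for DOX 1 and 51.6% for DOX 3. These H3K27me3 lists differed in length, with 212, 95.4, 247 and 246 Mb. Against the list of H2O 1 alone the shares were 24.5%, 33.9%, 28.5% and 41.3%.

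Promoters were grouped by the same H2O lists into H3K4me3-only (11347), bivalent (1598), H3K27me3-only (757), neither mark (5075) and mixed calls (1230). The H3K4me3-only class behaved differently in each pair. Of these promoters 65.6% were marked in H2O 1, 59.4% in H2O 3, 66.3% in DOX 1 and 21.9% in DOX 3. The difference was 0.643 percentage points in pair 1 and -37.4 in pair 3, a mean of -18.4 ± 26.9 (SD, n = 2 pairs; exact two-sided sign-flip permutation p = 1). It was thus smaller than the spread between the pairs, and the lower value was that of DOX 3. H3K4me3-only promoters took 24.6% of the reads in domains in H2O 1, 18.1% in H2O 3, 15.2% in DOX 1 and 3.36% in DOX 3. Unlike the marked share, this share of reads was lower in DOX in both pairs. It is a share of all reads in domains, and these went from 1807016 to 3405255 in pair 1. A lower share there does not mean fewer reads at these promoters. With every library limited to its most enriched domains up to the same covered length, the marked share was 65.6%, 44.3%, 30.6% and 8.30%. These values were lower in DOX in both pairs (differences of -35.01 and -36.04 percentage points). The common length, 42.0 Mb, was that of H2O 1, which kept all 43271 domains, whereas DOX 1 was cut from 55076 to 22231. Such a cut cannot raise the marked share, so it gives no direction for pair 1.

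Among bivalent promoters the marked share was 90.1% in H2O 1, 94.1% in H2O 3, 96.2% in DOX 1 and 85.2% in DOX 3, so it was higher in DOX in pair 1 and lower in pair 3. At equal covered length it was 90.1%, 87.9%, 68.0% and 46.3%, lower in DOX in both pairs. In pair 1 this cut shortened the DOX list alone, so the turned direction there is no separate result. H3K27me3-only promoters were marked more often in DOX in both pairs, with 13.1% against 39.2% in pair 1 and 32.0% against 53.6% in pair 3. Promoters with neither mark went from 5.81% to 15.2% and from 9.77% to 12.9%. When marked, a bivalent promoter was covered over 1985 bp on average in H2O 1, 2234 bp in H2O 3, 2604 bp in DOX 1 and 2163 bp in DOX 3.

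**Figure D2:**
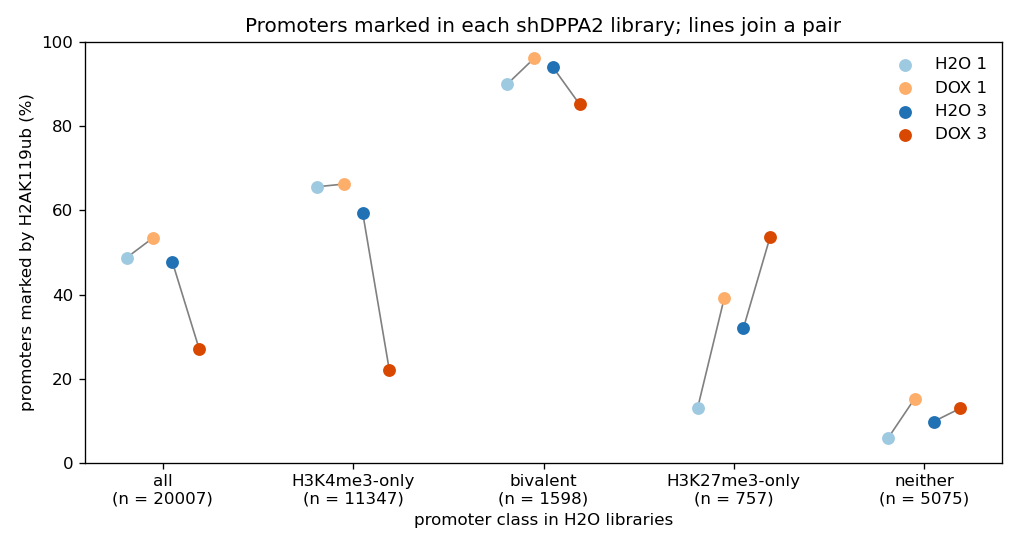
Percentage of promoters marked by H2AK119ub (y axis) in each class of promoter (x axis), with 1 point for each shDPPA2 library and a line joining the H2O and DOX libraries of a pair. H3K4me3-only promoters sit at 65.6%, 59.4% and 66.3% in 3 libraries and at 21.9% in DOX 3, whereas H3K27me3-only promoters are higher in DOX in both pairs.

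Around gene starts the marked position was not even. At H3K4me3-only genes a domain lay over the base 1000 bp downstream of the start at 40.1% of genes in H2O 1, 36.9% in H2O 3, 50.9% in DOX 1 and 14.3% in DOX 3. At the start itself these values were 25.4%, 26.2%, 33.9% and 4.43%, lower than downstream in every library. At 10000 bp downstream they were 4.00%, 4.56%, 9.17% and 3.58%, so DOX 1 was the highest library at every one of these positions. At bivalent genes the start was covered at 55.9%, 70.8%, 84.0% and 54.7%, and 5000 bp downstream at 8.32%, 13.95%, 20.4% and 20.6%. DOX 3 was thus close to H2O 1 at bivalent starts and level with DOX 1 further downstream. At H3K27me3-only genes the start was covered at 5.28% in H2O 1, 14.8% in H2O 3, 24.6% in DOX 1 and 36.5% in DOX 3.

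**Figure D3:**
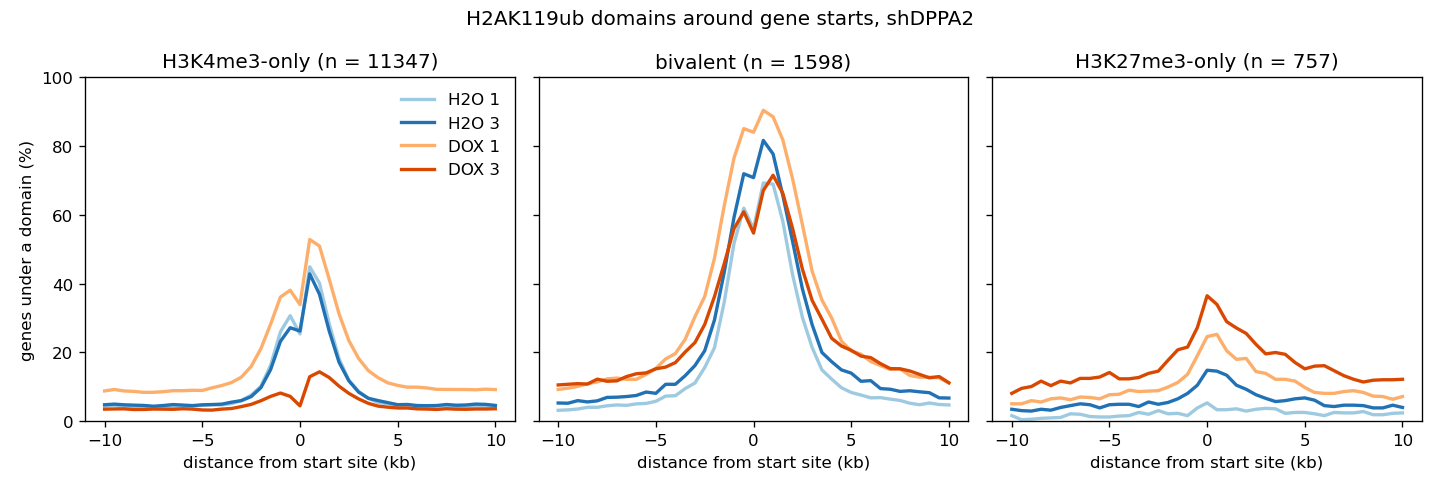
Percentage of genes with a H2AK119ub domain (y axis) by distance from the start site in kb (x axis, downstream to the right), for 3 promoter classes with 1 line for each shDPPA2 library. The DOX 3 line is lowest at H3K4me3-only genes (4.43% at the start) and highest at H3K27me3-only genes (36.5%).

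Of the 519 promoters lost in both pairs, 93.6% were H3K4me3-only and 0.963% bivalent, with 56.7% and 7.99% of all promoters beside them. They kept H3K4me3: 96.5% and 96.7% carried it in H2O replicates 1 and 2 and 96.9% and 96.7% in DOX replicates 1 and 2. H3K27ac of the parental line given DMSO, a mark of active promoters, was present at 95.6% of them, against 56.8% of all promoters, and SUZ12, a core PRC2 subunit, at 0.963% against 11.3%. Only the 8071 promoters marked in both H2O libraries could be lost, so part of these contrasts with all promoters follows from the rule. Of the 4103 promoters marked in all 4 libraries, 56.9% were H3K4me3-only and 30.4% bivalent, 58.2% held H3K27ac and 36.7% SUZ12. The 268 gained promoters were 11.9% H3K4me3-only, 25% H3K27me3-only and 45.5% without either mark, and 25.7% held SUZ12. Only promoters marked in neither H2O library could be gained, so part of these shares also follows from the rule. The loss counted in a single pair was much larger in pair 3, with 4924 promoters against 1331 in pair 1, and the gain was larger in pair 1, with 2285 against 807. A total of 3422 promoters were marked in both H2O libraries and DOX 1 but not in DOX 3, and 90.9% of these were H3K4me3-only. The marked classes rest on the domain filter: without it 167 promoters were lost in both pairs, 113 of them among the 519.

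The lost promoters with the largest change were covered almost end to end in H2O and not at all in DOX. BMAL2 and DPY19L3, a mannosyltransferase, were covered over 3001 bp in H2O 1 and in H2O 3 and over 0 bp in both DOX libraries. At NIBAN1 the covered lengths were 3001 and 2993 bp in H2O and 0 bp in DOX, and at SIPA1L3 they were 2801 and 3001 bp against 0 bp. C1orf21 had 2729 and 3001 bp in H2O and TOR2A, a torsin ATPase, 2688 and 3001 bp, both with 0 bp in DOX. GMFG, a regulator of actin branching, and SAMD4B, an RNA-binding protein, start next to each other on opposite strands of chromosome 19 and share their values, 3001 and 2701 bp in H2O and 0 bp in DOX. H3K4me3 at these 8 promoters covered 2000 to 3001 bp in H2O 1 and 1700 to 3001 bp in DOX 1. BMAL2 is the member of mixed class, with H3K27me3 over 0 bp in H2O 1 and 1900 bp in H2O 3.

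The gained promoters that ranked first had no covered base in H2O. At FOXA2 the covered length was 0 bp in both H2O libraries, 2555 bp in DOX 1 and 2746 bp in DOX 3. H3K27me3 lay over 1700 and 900 bp of the FOXA2 window in H2O 1 and H2O 3 and over 2555 and 3001 bp in DOX 1 and DOX 3. NKX6-3, a homeobox gene of the gut, had 2801 and 2401 bp of H2AK119ub in DOX and no H3K27me3 in any library. NLRP3 had 2400 and 2956 bp in DOX, with H3K27me3 over 2356 and 556 bp in H2O and 2501 and 2956 bp in DOX. ASTN1, a neuronal adhesion protein, had 2400 and 2500 bp. CLDN11, a tight junction claudin, had 2501 and 2201 bp and shares its start with a read-through gene, ENSG00000285218, that has the same values.

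Some genes moved in a single pair. ABCA7, a lipid transporter, ACP7, a phosphatase, ADAM23, a neuronal adhesion protein, and ADCY6, an adenylate cyclase, were covered over 2112 to 3001 bp in H2O 1, H2O 3 and DOX 1 and over 0 bp in DOX 3. CTLA4, an inhibitory receptor of T cells, FBL, the nucleolar methyltransferase fibrillarin, and MIOS, a subunit of the amino acid sensing complex GATOR, had 3001 bp in DOX 1 and 0 bp in the other 3 libraries. In DOX 3 alone, KRT77, a keratin, and TREML4, a myeloid receptor, had 3001 bp and AOC1, an amine oxidase, 2801 bp, with at most 224 bp in DOX 1 and 0 bp in H2O.

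Gene lists were described by how many of their promoters each library marked, beside all promoters at 48.8% in H2O 1, 47.7% in H2O 3, 53.6% in DOX 1 and 27.1% in DOX 3. HOX genes, the positional homeobox genes, are among the best known Polycomb targets, and 33, 36, 37 and 23 of 39 were marked in H2O 1, H2O 3, DOX 1 and DOX 3. None was lost or gained in both pairs. By cluster, DOX 3 marked 8 of 11 HOXA, 5 of 10 HOXB, 3 of 9 HOXC and 7 of 9 HOXD genes, and DOX 1 marked 11, 10, 8 and 8. Developmental transcription factors were marked at 130, 135, 138 and 116 of 152 promoters, and 105 were marked in all 4 libraries. PAX3, a homeobox factor of muscle and neural crest, was among those lost in both pairs, with 500 and 398 bp in H2O and 0 bp in DOX, and NKX6-3 and FOXA2 were gained (1.32% of the list).

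Signalling lists kept most of their marked promoters in DOX 3, where 85.2% of bivalent and 21.9% of H3K4me3-only promoters were marked. The part of promoter class in this was not tested. Wnt signalling had 52, 51, 56 and 42 of 64 marked and lost RYK, a Wnt receptor, in both pairs (1.56% of the list, against 2.59% of all promoters). Axon guidance had 57, 58, 62 and 53 of 71 marked, lost none and gained the semaphorins SEMA3G, SEMA4D and SEMA6D (4.23%, against 1.34% of all promoters). The retinoic acid pathway had 11, 12, 12 and 9 of 18 marked and lost RXRB, a retinoid X receptor (5.56% of the list, of which 11 were marked in both H2O libraries). Neuroendocrine genes had 14, 14, 14 and 11 of 19 marked, lung epithelial genes 14, 15, 18 and 12 of 30 and mesenchymal genes 15, 15, 17 and 10 of 22. None of these last 3 lists lost a member in both pairs, and the lung list gained FOXA2 (3.33%).

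In housekeeping and growth lists, DOX 3 marked 14% of DNA replication, 8.86% of ribosomal protein, 12.5% of proteasome and 22.7% of G1 promoters, with 21.9% of all H3K4me3-only promoters beside them. Of the 11347 H3K4me3-only promoters, 486 were lost in both pairs, a larger share than that of all promoters. Only promoters marked in both H2O libraries could be lost, and of the 8071 such promoters 519 were. The lists held 22 (DNA replication), 23 (ribosomal), 14 (proteasome) and 15 (G1) of them, so the shares of whole lists below also follow how many were marked. DNA replication genes were marked at 31, 29, 26 and 7 of 50 promoters, and 4 (8% of the list, against 2.59% of all promoters) were lost in both pairs. These were MCM7, a subunit of the replicative helicase, with 2061 and 1100 bp in H2O, PRIM1, the primase, with 800 and 1074 bp, ORC1, of the origin recognition complex, with 1078 and 700 bp, and POLE3, a polymerase epsilon subunit, with 600 bp in each. All 4 had 0 bp in DOX. Cytosolic ribosomal proteins were marked at 43, 27, 38 and 7 of 79, and 4 (5.06%) were lost in both pairs, among them RPS21, RPL15 and FAU. The proteasome list was marked at 21, 15, 21 and 6 of 48, with PSMG2 lost and PSMD11 gained (2.08% each). G1 cyclins, kinases and inhibitors had 17, 17, 17 and 5 of 22 marked and lost SKP2, which targets p27 for degradation, and RBL1, a retinoblastoma relative (9.09% of the list). CDKN1A, the p21 inhibitor, was gained by the rule, with 260 bp in each H2O library, just under the minimum, and 1760 and 960 bp in DOX. H3K4me3 covered 960 bp of its window in H2O replicate 1 and 0 bp in H2O replicate 2, so this window may not hold the start in use.

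Immediate early genes, the first to respond to growth factors, were marked at 32, 31, 30 and 18 of 32 promoters. JUN and FOS went from 2701 and 2726 bp in H2O 1 to 2801 and 3001 bp in DOX 1, and from 2353 and 1526 bp in H2O 3 to 0 bp in DOX 3. EGR1 was marked in all 4 libraries, with 2201, 1479, 1901 and 1479 bp. ATF3 was the member lost in both pairs (3.12%, against 2.59% of all promoters), with 400 and 800 bp in H2O. Germline genes had 16, 14, 15 and 9 of 39 marked, with 11 marked in both H2O libraries. They lost HORMAD2 and DMC1, both of meiotic recombination (5.13% of the list).

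The genes of the subunits that write the mark also differed between the pairs. PRC1 core and variant subunits were marked at 22, 19, 27 and 7 of 28 promoters, and none was lost or gained in both pairs. The share in DOX 3 was 25%, near the 27.1% of all promoters and the 21.9% of H3K4me3-only promoters. RNF2, the main ubiquitin ligase of PRC1, had 2126, 2601, 2426 and 0 bp, and its relative RING1 had 1701, 1501, 2601 and 0 bp. CBX7, a reader of H3K27me3, had 2880, 2801, 2801 and 0 bp, whereas CBX8 kept 718 bp in DOX 3 after 3001 bp in the other libraries. The genes of MGA, PCGF1, PCGF6, SCML2 and YAF2, parts or partners of PRC1, had 0 bp in both H2O libraries and DOX 3 and 500, 1306, 1357, 1500 and 2000 bp in DOX 1. BMI1 and PCGF2, the PCGF subunits of canonical PRC1, had 1399 and 3001 bp in H2O 1, 1701 and 2684 bp in H2O 3, 1601 and 2684 bp in DOX 1 and 0 bp in DOX 3. KDM2B, which brings variant PRC1 to CpG-rich DNA, had 2078, 678, 478 and 178 bp, lower in DOX in both pairs. AUTS2 was bivalent and kept its domain, with 1296, 2396, 3001 and 2501 bp. PRC2 subunits were marked at 9, 8, 8 and 1 of 15, with 1400, 2000, 2780 and 0 bp at EZH2, the methyltransferase. Deubiquitinases of H2A and readers of the mark were marked at 13, 10, 14 and 3 of 19.

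One list holds example loci shown by the study, so it is no independent sign of a direction. All 9 promoters were marked in H2O 1, H2O 3 and DOX 1, and 4 of 9 in DOX 3. FOXO3, DLX1, FOXP2, ITGB8 and PAX6 had 2400 to 2801 bp in H2O 3, 3001 bp each in DOX 1 and 0 bp in DOX 3. CDK6 and TFAP2C kept 328 and 501 bp in DOX 3. CYP26A1, which breaks down retinoic acid, had 3001, 2601, 3001 and 2975 bp, and DLX2 had 1501, 1401, 1801 and 1201 bp. The promoters of DPPA2 and DPPA4 carried little of the mark, with 500, 0, 0 and 0 bp at DPPA2 and 500, 0, 1155 and 0 bp at DPPA4.

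Blood, olfactory and hair genes, which are tissue-restricted, were marked at more promoters in DOX than in H2O in both pairs. Only promoters marked in neither H2O library could be gained, so 1.34% of all promoters is a low background for lists little marked in H2O. By class, 67 of 757 H3K27me3-only promoters and 122 of 5075 with neither mark were gained. Blood cell genes were marked at 2, 5, 12 and 7 of 32 promoters, and 4 (12.5%, against 1.34% of all promoters) were gained in both pairs. Among these were NLRP3, SPI1, the master factor of myeloid cells, and CD3E, a chain of the T cell receptor complex. SPI1 had 0 bp in H2O and 1654 and 1154 bp in DOX, and CD3E had 971 and 771 bp in DOX. Over the 4 blood markers fixed for the label check, the summed covered length was 0 bp in H2O 1 and H2O 3, 4390 bp in DOX 1 and 2490 bp in DOX 3. Olfactory receptors were marked at 5, 10, 16 and 24 of 415, with 6 gained (1.45%, close to all promoters), among them OR1N1 with 1600 and 2300 bp. Keratin-associated proteins of hair were marked at 1, 7, 10 and 23 of 94, with KRTAP29-1, KRTAP5-6 and KRTAP1-3 gained (3.19%).

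Zinc finger genes of chromosome 19 were marked at 79, 63, 72 and 8 of 240 promoters. Of these promoters 42 were marked in both H2O libraries and could be lost, and of all promoters 8071. In both pairs 11 were lost (4.58%, against 2.59% of all promoters and 486 of the 11347 H3K4me3-only promoters). Among them were ZNF529 with 2476 and 1700 bp in H2O and ZNF382 with 2017 and 1700 bp. ZNF567 was gained (0.417%), with 900 and 500 bp in DOX. Clustered protocadherins stayed nearly unmarked, at 5, 4, 5 and 4 of 53, with PCDHGA11 lost and PCDHGA10 gained (1.89% each). Members of both families have near-identical copies, so reads that map to several of them make single genes uncertain.

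**Figure D4:**
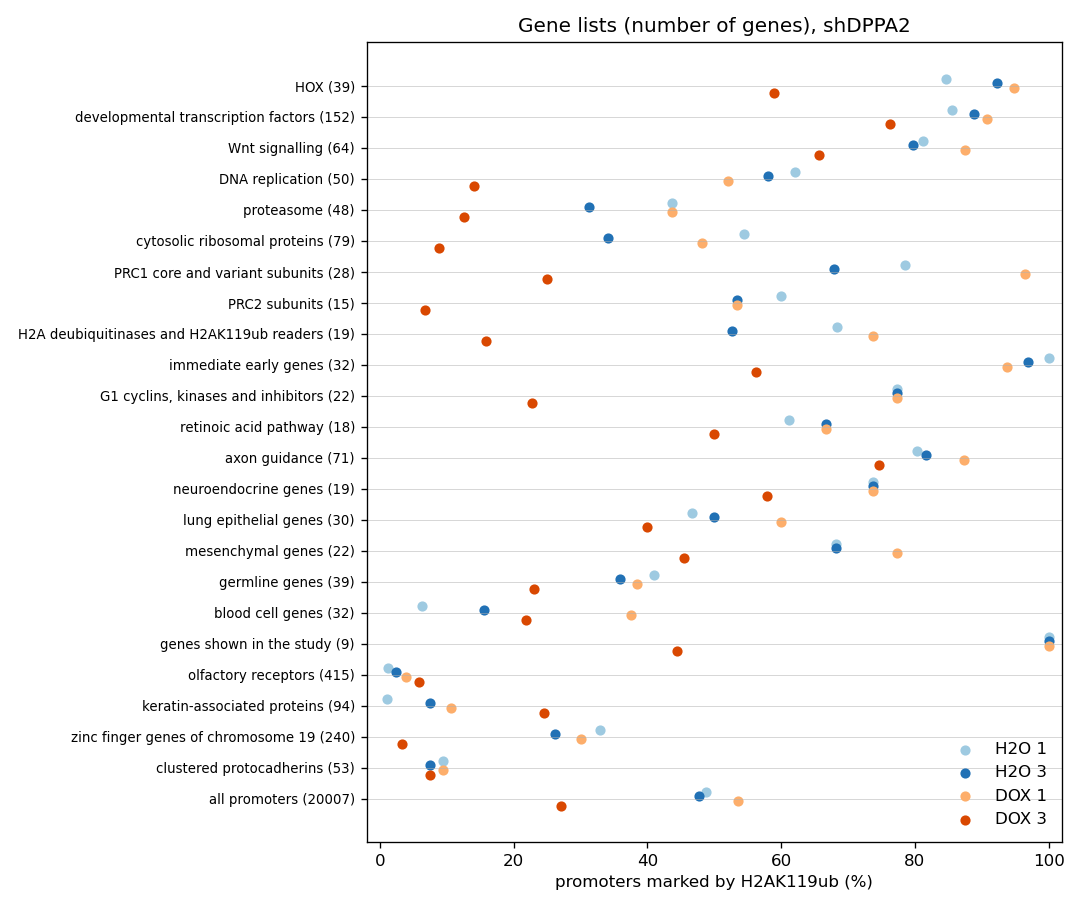
Percentage of promoters marked by H2AK119ub (x axis) in each gene list (y axis, number of genes in brackets), with 1 point for each shDPPA2 library. DOX 3 is far left of the other libraries for DNA replication, ribosomal protein, PRC1 and zinc finger genes, and right of both H2O libraries for blood cell genes, olfactory receptors and keratin-associated proteins.

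Gene bodies were measured from 1500 bp downstream of the start to the end of the gene, for the 11293 genes with at least 20 kb there. The mean share of a body under domains was 1.87% in H2O 1, 2.44% in H2O 3, 4.82% in DOX 1 and 3.51% in DOX 3. Bodies covered to at least 50% numbered 12, 31, 135 and 81. The share was higher in DOX by more than 10 percentage points in both pairs at 351 bodies (3.11%) and lower by as much in both pairs at 4 (0.0354%). By class, genes with bivalent promoters went in mean share from 2.24% to 7.03% in pair 1 and from 4.03% to 9.52% in pair 3. Genes with H3K27me3-only promoters went from 1.09% to 4.71% and from 2.59% to 7.96%, and H3K4me3-only genes went from 1.81% to 4.26% and from 2.04% to 1.91%. The share was higher in both pairs at 65.9% of bivalent, 55.6% of H3K27me3-only and 12.7% of H3K4me3-only bodies.

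The bodies with the largest positive differences in both pairs were those of SLC6A3, SLC6A19, APCDD1, SLCO4A1 and RBFOX3. SLC6A3, the dopamine transporter (chr5:1392794-1445440), was covered over 11.025% in H2O 1, 32.4% in H2O 3, 62.9% in DOX 1 and 77.1% in DOX 3. SLC6A19, an amino acid transporter on the same chromosome arm, had 29.5%, 47.3%, 75.4% and 90.9%. APCDD1, an inhibitor of Wnt signalling, had 3.44%, 23.3%, 44.3% and 72.1%, and H3K27me3 covered 63.9%, 47.1%, 83.9% and 93.6% of the same body in H2O 1, H2O 3, DOX 1 and DOX 3. SLCO4A1, an organic anion transporter, had 10.0%, 27.3%, 50.7% and 67.9% with no H3K27me3. RBFOX3, the neuronal splicing factor known as NeuN, had 9.99%, 30.0%, 47.4% and 71.6% over a body of 520206 bp. At all 5 genes each DOX library lay above both H2O libraries.

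The largest negative differences were at SAMD4B, with 23.2% and 22.4% in H2O and 1.44% and 0% in DOX, and at ACP7, with 37.5% and 42.1% in H2O and 21.0% and 0% in DOX. MAP4K1, a kinase of blood cells, had 23.2% and 23.9% against 9.08% and 3.03%. BAZ2A, a subunit of a nucleolar remodeller, had 24.0% and 18.7% against 11.1% and 0%. CSRP1, a LIM-domain protein of smooth muscle, had 8.82% and 14.6% against 0% and 5.32%.

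**Figure D5:**
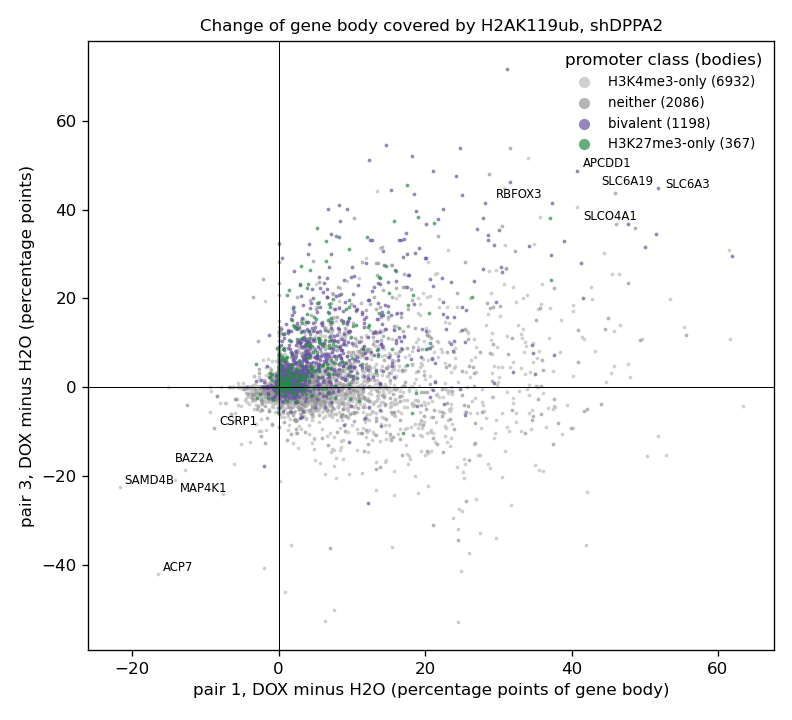
Change in the share of a gene body under H2AK119ub domains, DOX minus H2O in percentage points, in pair 1 (x axis) and pair 3 (y axis), with 1 point for each gene body of at least 20 kb coloured by promoter class (mixed class not drawn; the named genes are labelled). Bivalent and H3K27me3-only genes lie mostly in the upper right, and 4 bodies were lower in DOX by over 10 points in both pairs.

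Read counts were compared in regions that every H2AK119ub library of the 3 knockdown lines held. This left 6161 of 170847 merged regions, each with a domain in all 12 libraries. The reads of a region are those of the domains called in it. Reads outside a called domain were not counted, so the counts also depend on the called length. With edgeR's quasi-likelihood test, TMM scaling, the replicate number as a block and Benjamini-Hochberg adjustment, no region of shDPPA2 passed an adjusted p of 0.05 with a log2 fold change of at least 0.5 in size (0% lower and 0% higher), and the smallest adjusted p was 0.173. At an unadjusted p under 0.05 there were 719 regions with more reads in DOX (11.7%) and 433 with fewer (7.03%). DESeq2 on the same counts called 259 higher (4.29%) and 36 lower (0.596%). Without DOX 1 edgeR called 7 higher and 46 lower. Regions in which any of the 12 libraries lacked a domain were not tested.

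Among regions with more reads, the smallest p were at EGFLAM, SHANK2, RBFOX3, and ARHGEF40 with ZNF219, and their adjusted p in DESeq2 lay between 7.49e-05 and 0.000256. At EGFLAM, a retinal matrix protein, the domains called in chr5:38394701-38417300 held 71 reads in H2O 1, 116 in H2O 3, 453 in DOX 1 and 695 in DOX 3. In TMM-scaled CPM (reads scaled to library size) these were 67.4, 124, 250 and 513. The fitted log2 fold change was 1.97 (SE 0.31, edgeR adjusted p = 0.173). SHANK2, a synaptic scaffold, had 14, 96, 237 and 571 reads in chr11:71207401-71225300 (log2 fold change 2.52). At RBFOX3 the region chr17:79195101-79229100 held 101, 387, 767 and 1635 reads (1.81), and at ARHGEF40 and ZNF219 chr14:21088701-21095900 held 20, 18, 164 and 177 reads (2.55). In these 4 regions the DOX libraries lay above the H2O libraries in reads, and their domains were longer too: at EGFLAM they covered 2200 and 4500 bp in H2O and 15800 and 13400 bp in DOX. With the called length as an offset, which compares reads per length, the log2 fold changes became -0.19 at EGFLAM, -0.09 at SHANK2, -0.27 at RBFOX3 and -0.83 at ARHGEF40 and ZNF219. The sign of the difference thus turned in all 4 regions once reads were taken per called length. In that fit the median of all regions was also lower, at -0.42, and EGFLAM, SHANK2 and RBFOX3 lay above this median while ARHGEF40 and ZNF219 lay below it.

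Among regions with fewer reads, that of NAA38 and CHD3, a chromatin remodeller, at chr17:7884801-7890600 held 228 and 103 reads in H2O and 110 and 40 in DOX, a log2 fold change of -1.86 (SE 0.40, edgeR adjusted p = 0.173). The region of TTC16, TOR2A and SH2D3C at chr9:127726801-127745900 held 373, 259, 304 and 105 reads in H2O 1, H2O 3, DOX 1 and DOX 3 (-1.41). That of PPP1R1B and STARD3 at chr17:39631401-39641100 held 142, 109, 116 and 47 reads (-1.41). SLC1A3, a glutamate transporter, had 317, 435, 322 and 321 reads in chr5:36687701-36707500 (-0.88). In CPM each of these 4 regions was lower in both DOX libraries than in both H2O libraries, and none passed the adjusted threshold in edgeR, whereas their adjusted p in DESeq2 lay between 0.00205 and 0.0233. With the called length as an offset the log2 fold changes were -0.61, -0.65, -0.47 and -0.32 in the same order, against the median of -0.42 over all regions.

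The difference between lines was tested for the same regions. At an adjusted p of 0.05, no region was called different in its doxycycline effect between shDPPA2 and shDPPA4 or the double knockdown shDPPA2+4. In this edgeR interaction test the smallest adjusted p were 0.930 and 0.614, with 256 and 250 regions at an unadjusted p under 0.05. Within each of shDPPA4 and shDPPA2+4, edgeR also called 0 regions lower and 0 higher with doxycycline (smallest adjusted p = 0.170 and 0.681). The study reports a loss of H2AK119ub in both of these lines. With 2 pairs for each line, and only regions held by all 12 libraries, these tests do not show equal effects or an unchanged mark. In covered length, shDPPA2 was higher in DOX in both pairs, by 57.4 and 42.0 Mb, whereas shDPPA4 differed by -42.1 and 42.0 Mb and shDPPA2+4 by -31.6 and 37.9 Mb in pairs 1 and 3. The share of H3K4me3-only promoters marked, by the shDPPA2 classes, differed by -12.7 and -24.7 percentage points in shDPPA4 and by -2.85 and -14.4 in shDPPA2+4, against 0.643 and -37.4 in shDPPA2. In pair 3 all 3 lines moved in the same direction in both measures, and with 2 pairs for each line the differences between lines in them were not tested. The DOX library of pair 3 was also the larger in every line. In units of the shDPPA2 DOX input, totals of H2O 3 and DOX 3 were 1.34 and 3.52 in shDPPA2, 1.24 and 2.72 in shDPPA4 and 1.40 and 2.68 in shDPPA2+4. In pair 1 they were 2.29 and 2.10, 1.79 and 2.36, and 1.87 and 2.52. The part of depth in these differences was not tested. The promoter share of covered length in DOX 3 was 8.32% in shDPPA2, 10.4% in shDPPA4 and 11.9% in shDPPA2+4.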

How the data were processed

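Chromatin immunoprecipitation and sequencing (ChIP-Rx-seq) had been done with a mouse stem cell spike-in. Per the study's methods, Trim Galore 0.6.6 and BWA 0.7.13 gave reads aligned to hg38, mouse reads were split off, and EPIC2 called domains for each library against genomic input. The lists deposited by the authors give ChIP and input read counts, an FDR (an adjusted p-value) and the log2 fold over input for each domain, with no spike-in scaling. Domains were used with log2 fold above 1 and FDR under 0.05, and the ENCODE blacklist was not applied. Covered bases were computed with Python 3.11.15 over GENCODE 44 genes on hg38. Upstream sequences were read from that genome. Those printed leave out chromosome 8, and CpG counts cover every promoter. Reads of the called domains in each region were summed and tested with edgeR 4.0.16 in R 4.3.3 at a mean of at least 10 reads, with DESeq2 1.42.0 as an alternative. The script was tested on simulated data.

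Samples were grouped by their titles. The study made replicates in complete batches, and deviations from the group means of same-numbered libraries correlated in each line over 6161 regions (r = 0.504, 0.304 and 0.495), so numbers were taken as pairs. Replicates are described as biological, with no word on separate cultures, so p-values measure only the spread between these samples. Within a treatment both replicates had identical input counts at all domains of equal borders (304 in H2O, 210 in DOX). The H2O input total was 0.802 times that of DOX at 6985 domains with the same borders, from which relative library totals were taken. Absolute depth is unknown from the lists. Alternatives were other domain filters, equal covered length, other promoter rules, other scalings and leaving out libraries. Named genes were those ranked first among lost, gained, single-pair, gene body and region changes, list members lost or gained in both pairs and PRC1 and example genes, and a few others were named after their values were seen (EZH2, JUN, FOS and EGR1). Some list members are not reported here. Members and lists were chosen with earlier results of these data known.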

Additional observations from a re-analysis of the deposited data

How the results depend on the processing

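The mean difference in covered length between DOX and H2O was 68.7 Mb with every deposited domain and 30.1 Mb with a log2 fold above 1.5, against 49.7 Mb, and 42.0 to 57.4 Mb when either pair was left out. At equal covered length, which left H2O 1 uncut and shortened the other lists, it is 0 by construction. The width difference lay between 300 and 600 bp and the gene body share between 2.82 and 5.49 percentage points when a pair was left out, and their direction held under every alternative run. The mean change in H3K4me3-only promoters marked ranged from -37.4 to 0.643 percentage points when a pair was left out, so its sign turned without replicate 3. It was -35.5 at equal covered length, -7.57 with 1000 bp required and -12.4 with a window of 500 bp, against -18.4, and in pair 1 these promoter rules gave 12.3 and 8.32.

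Promoters lost in both pairs (519) numbered 167 without the domain filter, 949 with the stricter filter, 2570 at equal covered length and 236 when 1000 bp had to be covered, and from 1331 to 4924 when lost in a single pair. Of the 519, 113, 273, 288 and 154 were lost under the first 4 of these. Gained promoters (268) numbered 123 at equal covered length and from 807 to 2285 in a single pair. The cause was not tested.

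In edgeR, 46 regions were lower and 7 higher without DOX replicate 1, and none in either direction without each of the other shDPPA2 libraries (0 to 46 and 0 to 7), where the lone library left is assumed to vary like the other groups. Scaling by recovered library totals gave 8 higher, the 4 shDPPA2 libraries alone 11 lower and 121 higher, and DESeq2 36 lower and 259 higher. The fit without the replicate block called 0 in either direction, with 248 regions at an unadjusted p under 0.05 against 1152 with it. With called length as offset the median log2 fold change of all regions was -0.42, and with recovered totals 0.07. Depth limits the comparison of domain calls between H2O 3 and DOX 3, whose totals differed 2.62 times.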

Other observations

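Coverage by H2AK119ub differed between chromosomes, and in a different way in each pair. Chromosome 19, rich in genes, was the most covered in H2O 1 and H2O 3, with 5.87% and 7.88% of its length, and had 12.2% in DOX 1 and 7.23% in DOX 3. On chromosome 20 the values were 3.27%, 4.73%, 9.04% and 9.49%, higher in DOX in both pairs. Chromosome 9 went from 0.907% to 2.13% in pair 1 and from 1.13% to 1.14% in pair 3. Chromosome X went from 0.278% to 0.640% and from 0.317% to 0.331%. Chromosome 18 was more covered in DOX in both pairs, going from 0.695% to 1.71% and from 0.975% to 2.73%. The copy number of each chromosome in this line was not measured here.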
